A study of Mus musculus with 22 samples.

Results

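The 6 libraries described here were made from CD45+ cells with a history of Osx expression (Osx+ CD45+ cells), sorted from mouse breast tumors, and compare 3 libraries from Cdh2-cKO mice with 3 from wild type mice. They were chosen by their titles and genotype labels, and are 6 of the 22 libraries in the series. Osterix (Osx, gene Sp7) is a transcription factor of bone-forming cells, and CD45 (gene Ptprc) is the surface phosphatase carried by nearly all nucleated blood cells. The series asks which cells carrying the Osx-driven reporter reach tumors that grow outside bone, and the comparison below asks whether the RNA of the CD45+ ones differs when N-cadherin, the product of Cdh2, is deleted.

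Wild type mice were Osx-cre;Ai9 and the knockout mice were Cdh2-cKO;Ai9, all C57BL/6 at postnatal day 56. Ai9 makes the red protein TdTomato (TdT) after Cre recombination, and both genotypes carried it. The Osx-cre transgene drives a tetracycline-repressible Cre from the Sp7 promoter, so a TdT+ cell is one in which that promoter, or that of an ancestor cell, was active enough to give Cre, and need not express Osx when sorted. The labels do not name the Cre that deletes Cdh2, the sex of the mice, or whether doxycycline was given. They state that 4 wild type and 6 Cdh2-cKO mice were inoculated and that only preparations with intact RNA, with a mean RNA integrity number of 8.95, were sequenced. The tumor is named as an orthotopic MMTV-BO1 tumor in the sample labels and as subcutaneous in the design text.

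Blood cells in a tumor are mostly macrophages, which arise from circulating monocytes that enter through the chemokine receptor CCR2, together with variable numbers of lymphocytes. T cells recognise antigen through the T cell receptor, whose alpha and beta chains signal through the CD3 proteins. Regulatory T cells, defined by the transcription factor FOXP3, restrain other T cells and carry the interleukin 2 receptor chain CD25, CTLA4 and ICOS. N-cadherin joins neighboring mesenchymal cells through its extracellular domain and binds catenins inside the cell.

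The targeted gene could not serve as a check of the labels in these cells. Cdh2 had 12, 6 and 8 raw counts in wild type replicates 1, 2 and 3 and 11, 0 and 7 in Cdh2-cKO replicates 1, 2 and 3, which was below the filter on low counts, so that it was not tested. Sp7 had 0 counts in all 6 libraries. Ptprc was present at 640, 580 and 557 CPM (read counts scaled to the library total and TMM-normalized) in wild type and at 426, 578 and 428 CPM in Cdh2-cKO. The CD45 side of the sort was therefore seen in the RNA, while Osx itself was not. Of the 8 osteolineage genes examined besides Sp7, 2 passed the filter: Runx2, an early transcription factor of bone-forming cells that blood cells can also express, at 14.75, 12.4 and 12.2 CPM in wild type and 21.6, 15.6 and 15.9 CPM in Cdh2-cKO, without overlap (log2 fold change 0.44, SE 0.20, edgeR adjusted p = 0.63), and Dmp1, a gene of osteocytes, at 0.160, 0.317 and 1.34 CPM against 0.199, 0.434 and 2.08 CPM. The osteoblast gene Bglap had at most 1 raw count in any library.

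Macrophage transcripts were abundant in both genotypes. The 12 macrophage genes examined summed to 14940, 18880 and 16010 CPM in wild type and to 20510, 18660 and 21260 CPM in Cdh2-cKO, with Csf1r, the receptor for macrophage colony-stimulating factor, at 786 to 1116 CPM in wild type and 1106 to 1221 CPM in Cdh2-cKO. Adgre1, which encodes the macrophage surface protein F4/80, ranged from 778 to 948 CPM and from 641 to 1194 CPM.

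Total counts ranged from 18467273 to 23228544 per library, so that 3 counts corresponded to 0.13 to 0.16 CPM, and mitochondrial genes took 1.9% to 4.19% of the counts. Wild type replicate 1 and Cdh2-cKO replicate 2 held Y-linked transcripts (Ddx3y, Eif2s3y, Kdm5d and Uty summed to 226 and 172 CPM, against 0.0542 to 0.700 CPM in the others) and little Xist (4.49 and 3.69 CPM, against 92.8 to 158 CPM), and these were the pair at the low end of the second principal component (22.1% of the variance). The first component (34.3%) set wild type replicates 2 and 3 apart from the other 4 libraries, with wild type replicate 1 among the Cdh2-cKO libraries. Replicates of a genotype differed by far more than counting noise (chi-square per degree of freedom 49.7 to 118), so none was a repeat of another.

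No gene passed the test between genotypes. Of 12263 genes tested with edgeR's quasi-likelihood test, 0 passed a threshold of 0.05 after Benjamini-Hochberg adjustment (lowest adjusted p = 0.228), 984 (8.02%) had an unadjusted p under 0.05 (540 or 4.4% lower and 444 or 3.62% higher in Cdh2-cKO), and the median log2 fold change over all genes was 0.01. Limma's voom with quality weights also called 0 genes, whereas DESeq2 called 84, of which 70 (0.571%) were lower and 14 (0.114%) higher in Cdh2-cKO. The values below are therefore given as measured levels and differences, with the share of all genes that behaved alike. The libraries come from separate cell preparations, but the labels do not tie them to single animals, so p-values measure the spread between these preparations.

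T cell transcripts were lower on average in Cdh2-cKO, with a wide spread among the wild type libraries. The 18 T cell genes summed to 111, 365 and 843 CPM in wild type replicates 1, 2 and 3 and to 106, 76.5 and 46.2 CPM in Cdh2-cKO, or 439 ± 372 against 76.3 ± 29.9 CPM (mean ± SD, n = 3 each). The genotypes did not overlap, but wild type replicate 1 lay just above Cdh2-cKO replicate 1 and far below the other wild type libraries. All 18 had a log2 fold change below 0 (median -2.71, from -3.30 to -1.51), against 48.2% of all genes tested. All 18 had an unadjusted p under 0.05, against 4.4% of all genes in that direction, and in 9 every Cdh2-cKO library lay below every wild type library, against 6.78%. None of the 18 passed the adjusted threshold in edgeR (adjusted p from 0.319 to 0.606) or with voom. DESeq2 called 6, against 0.571% of all genes called lower. In RNA from bulk sorted cells, fewer T cells in a preparation and less RNA of these genes per cell cannot be told apart.

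The genes of the CD3 complex, which carry the signal of the T cell receptor into the cell, moved with one another across the 6 libraries. Cd3g was at 8.18, 46.4 and 104 CPM in wild type and at 7.78, 6.59 and 3.09 CPM in Cdh2-cKO (log2 fold change -3.18, SE 0.77). Its neighbor Cd3d was at 3.96, 31.4 and 60.8 CPM against 4.34, 3.99 and 1.39 CPM (log2 fold change -3.30, SE 0.83), and here wild type replicate 1 lay below 2 of the Cdh2-cKO libraries. Both genes were thus high in wild type replicates 2 and 3 and low in the other 4 libraries. Cd3e, at 8.28, 32.2 and 81.1 CPM against 10.2, 5.29 and 3.73 CPM, was also highest in those 2 wild type libraries, and its genotypes overlapped.

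Cd3g and Cd3d lie head to head on chromosome 9, their start sites 1355 bases apart, and are read in opposite directions. The 250 bases before each start site are shown because these neighboring genes varied together, taken from RefSeq (GRCm38.p6) and written 5′ to 3′ on the strand of the gene. Both windows were searched on both strands for GGAAGT, a core to which ETS family factors bind, and for TGTGGT, a core to which RUNX factors bind, with matches in capitals.
Cd3g, chr9:44980432-44980681, minus strand: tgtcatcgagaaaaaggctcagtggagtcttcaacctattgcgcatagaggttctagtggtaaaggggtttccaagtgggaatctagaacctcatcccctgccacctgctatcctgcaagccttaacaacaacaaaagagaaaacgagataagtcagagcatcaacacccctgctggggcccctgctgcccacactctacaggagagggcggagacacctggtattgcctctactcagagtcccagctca
Cd3d, chr9:44981536-44981785, plus strand: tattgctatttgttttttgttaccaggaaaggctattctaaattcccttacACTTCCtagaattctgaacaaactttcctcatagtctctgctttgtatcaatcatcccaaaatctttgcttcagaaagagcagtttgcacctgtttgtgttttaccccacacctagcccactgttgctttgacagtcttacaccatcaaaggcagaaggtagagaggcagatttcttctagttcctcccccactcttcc
The Cd3d window held 1 match to the ETS core, on the opposite strand and 193 bases before the start site, and no match to the RUNX core. The Cd3g window held neither. Among 32851 promoter windows of the same length, 19.7% held the ETS core and 14% held the RUNX core, so a single match is a common occurrence. A match of letters is a description and was not tested as a binding site.

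The chains of the receptor itself and the T cell coreceptors were likewise highest in wild type replicates 2 and 3. Trac, the constant region of the alpha chain, was at 7.06, 42.8 and 83.9 CPM in wild type and at 6.28, 4.42 and 3.63 CPM in Cdh2-cKO. Trbc1, a constant region of the beta chain, was at 2.30, 7.82 and 21.1 CPM against 1.65, 0.824 and 0.960 CPM. In both the genotypes did not overlap, although the gap between wild type replicate 1 and the nearest Cdh2-cKO library was small. Cd4 (chr6:124864692-124888221, minus strand), the coreceptor of helper and regulatory T cells, had the smallest unadjusted p of the T cell genes: 7.75, 12.3 and 19.7 CPM in wild type and 3.79, 2.82 and 2.67 CPM in Cdh2-cKO (log2 fold change -2.10, SE 0.35, edgeR adjusted p = 0.319, DESeq2 adjusted p = 3.003e-05). Cd8a, the coreceptor of cytotoxic T cells, was at 0.748, 2.91 and 14.5 CPM against 2.14, 0.737 and 0.160 CPM, and its genotypes overlapped. Wild type replicate 1 thus lay above the knockout libraries for Cd4 and within their range for Cd8a.

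**Figure D1:**
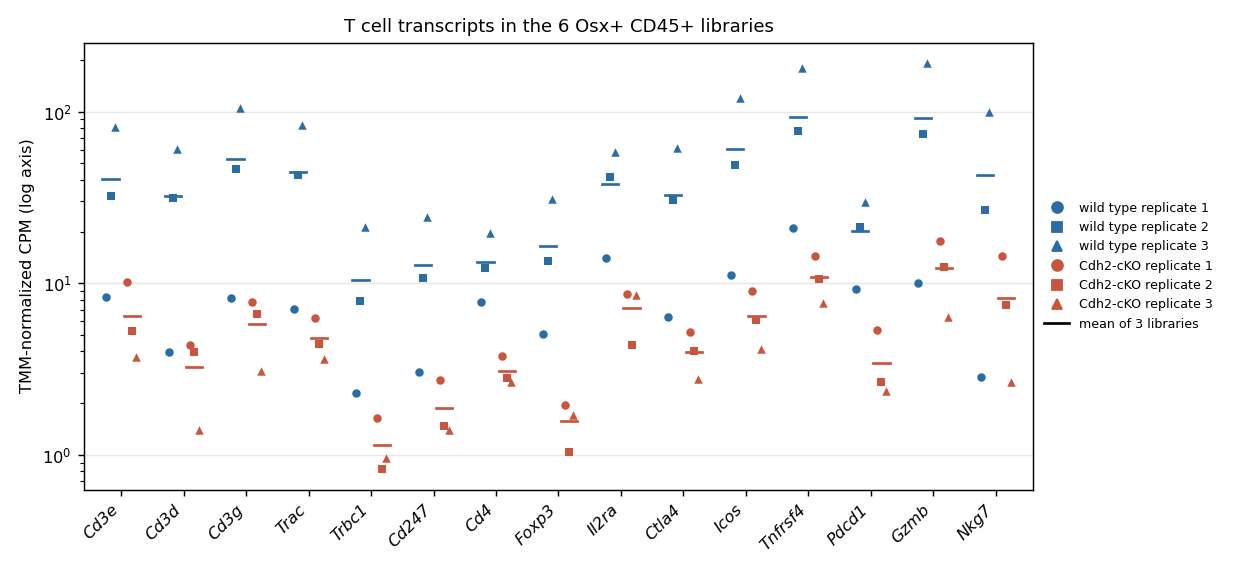
TMM-normalized CPM (log axis) of 15 T cell, regulatory T cell and cytotoxic genes in each Osx+ CD45+ library. Wild type libraries are blue and Cdh2-cKO libraries red, with a symbol for each replicate and a bar at the mean of 3 libraries. Wild type replicates 2 and 3 are the upper pair for every gene shown. Wild type replicate 1 lies near the Cdh2-cKO libraries for some genes, as for Cd3g at 8.18 CPM against 7.78 CPM in Cdh2-cKO replicate 1. It lies farther above them for others, as for Foxp3 at 5.08 CPM against 1.94 CPM in Cdh2-cKO replicate 1.

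Genes of regulatory T cells were lower in Cdh2-cKO in nearly every pairing of libraries. Of the 9 tested, 9 had a log2 fold change below 0 (median -3.03), and in 8 every Cdh2-cKO library lay below every wild type library, against 6.78% of all genes. Foxp3 (chrX:7573644-7595245, plus strand) was at 5.08, 13.4 and 31.1 CPM in wild type and at 1.94, 1.04 and 1.71 CPM in Cdh2-cKO, so that the lowest wild type library lay well above the highest knockout library (log2 fold change -3.41, SE 0.61, edgeR adjusted p = 0.319, DESeq2 adjusted p = 3.409e-07). Il2ra, the CD25 chain, was at 14.1, 41.4 and 58.4 CPM against 8.63, 4.38 and 8.59 CPM. Ctla4, which competes with CD28 for its ligands, was at 6.36, 30.3 and 61.2 CPM against 5.18, 4.03 and 2.77 CPM, a narrow gap at wild type replicate 1. Tnfrsf4, encoding the costimulatory receptor OX40, was the most abundant of the list at 21, 77.3 and 180 CPM against 14.3, 10.6 and 7.63 CPM. Ikzf2, encoding the transcription factor Helios, Icos, Tnfrsf18 and Ccr8 were likewise higher in each wild type library than in any knockout library, with log2 fold changes from -3.29 to -2.10. Lrrc32 was the exception, at 0.588, 1.48 and 7.55 CPM against 1.94, 1.69 and 4.16 CPM. DESeq2 called 4 of the 9, against 0.571% of all genes called lower, while edgeR and voom called 0 of them.

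Among the 10 checkpoint genes tested, 6 had a log2 fold change below 0 and 4 above it, and in 5 the genotypes did not overlap, 3 of them lower (against 6.78% of all genes) and 2 higher (against 6.89%). Pdcd1, encoding PD-1, was at 9.30, 21.2 and 29.6 CPM in wild type and at 5.34, 2.65 and 2.35 CPM in Cdh2-cKO (log2 fold change -2.54, SE 0.46, edgeR adjusted p = 0.319). Btla was at 4.92, 6.61 and 9.27 CPM against 1.80, 2.47 and 0.907 CPM, and for both the genotypes did not overlap. Cd274, encoding the PD-1 ligand PD-L1, was instead at 52.8, 32.6 and 57.9 CPM in wild type and at 120, 65.7 and 73.1 CPM in Cdh2-cKO (log2 fold change 0.85, SE 0.28). Vsir, encoding VISTA, was at 222, 216 and 209 CPM against 288, 322 and 280 CPM (log2 fold change 0.46, SE 0.15), again without overlap. Lag3, an inhibitory receptor of T cells, had the highest log2 fold change of the list (1.62, SE 0.64) and was high in Cdh2-cKO replicate 2 alone, at 37.4 CPM against 3.78 to 9.67 CPM in the other 5 libraries. The inhibitory receptor gene Tigit overlapped, at 2.67, 20.2 and 43.8 CPM against 3.44, 3.30 and 2.24 CPM.

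Cytotoxic and natural killer cell genes followed wild type replicates 2 and 3 and overlapped between genotypes at wild type replicate 1. All 10 tested had a log2 fold change below 0 (median -2.26), against 48.2% of all genes, and in 2 of them, Klrd1 and Klrk1, the genotypes did not overlap, against 6.78%. Gzmb, encoding the protease granzyme B, was at 10.1, 73.8 and 192 CPM in wild type and at 17.7, 12.5 and 6.35 CPM in Cdh2-cKO. Nkg7, a granule membrane protein, was at 2.83, 26.5 and 99.5 CPM against 14.4, 7.42 and 2.67 CPM, so that wild type replicate 1 was among the lowest libraries. Klrd1, the CD94 chain of natural killer receptors, was at 12.3, 21.1 and 33.2 CPM against 5.53, 10.7 and 6.56 CPM. Ccl5, a chemokine of T and natural killer cells that macrophages also make, was at 27.7, 57.2 and 168 CPM against 61.6, 28.4 and 37.0 CPM. Of the genes of gamma-delta and type 17 T cells, 2 passed the filter: Cd163l1 at 1.23, 1.37 and 6.69 CPM against 0.249, 0.564 and 0 CPM, and Tcrg-C1 at 0.855, 1.004 and 3.82 CPM against 0.0499, 1.43 and 0.107 CPM. These are levels of few counts.

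The study lists 50 genes as upregulated in Osx+ CD45+ cells over CD45+ cells without the reporter, and these moved with the T cell genes. In wild type they summed to 191, 540 and 1326 CPM in the Osx+ CD45+ libraries. In the wild type CD45+ libraries without the reporter they summed to 114.5, 3304 and 84.7 CPM, so they did not separate the populations in every library. Of the 50, 49 had a log2 fold change below 0 (median -2.89, against 48.2% of all genes), 43 had an unadjusted p under 0.05 in that direction (against 4.4%), and in 28 every Cdh2-cKO library lay below every wild type library (against 6.78%). The list was chosen by the study with these wild type libraries, so a gene could enter it by being high in them, and its direction is not independent evidence. It shares 14 members with the T cell, regulatory T cell, cytotoxic and gamma-delta lists. Its members include Klrg1, an inhibitory receptor of differentiated T and natural killer cells, at 6.52, 18.9 and 42.2 CPM against 3.64, 1.69 and 0.587 CPM, and Cd209a, a lectin of dendritic cells, at 43.9, 23.2 and 114 CPM against 25.6, 23.9 and 10.1 CPM. Lrrc66 was the member with a log2 fold change above 0, at 0.855, 0.846 and 1.86 CPM against 1.94, 2.82 and 0.480 CPM.

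Calls for these genes depended on wild type replicate 1. Without it, edgeR called 29 genes, 28 lower in Cdh2-cKO, among them Foxp3, Ctla4, Il2ra, Icos, Trac, Cd3g, Cd3d, Cd4, Cd247, Trbc1 and Pdcd1. Of the 28, 12 belonged to the T cell, regulatory T cell, cytotoxic or gamma-delta lists. With all 6 libraries, these lists held 39 of the 12263 genes tested. Leaving out any other single library gave 0 calls. Without both libraries that held Y-linked transcripts, a fit added after the data were seen, edgeR called 47 genes, 39 of them lower, and 27 of the 29 were among them. Both fits left out wild type replicate 1, the wild type library with the least T cell RNA, so they are not independent. With a term for the Y-linked transcripts and all 6 libraries it called 0 (lowest adjusted p = 0.141). The T cell median log2 fold change ran from -3.46 to -1.83 over the fits that dropped 1 library each, the value nearest 0 coming without wild type replicate 3, which had the most T cell RNA. The part that Y-linked status plays in these values was not tested beyond these fits.

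**Figure D2:**
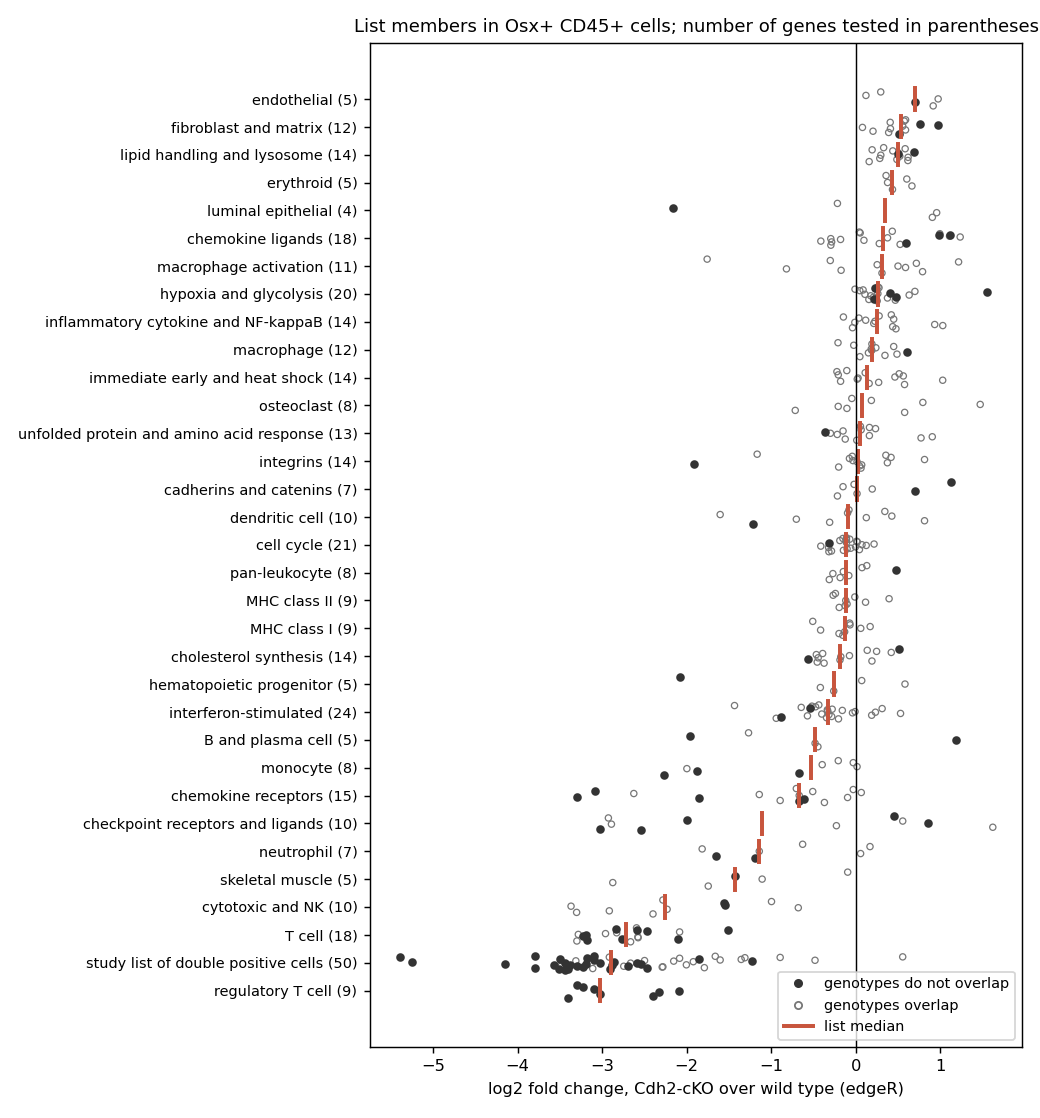
The log2 fold change (Cdh2-cKO over wild type, edgeR) of each tested member of the gene lists with 4 or more genes tested, with lists ordered by their median (red bar). Filled points are genes whose genotypes do not overlap and open points are genes whose genotypes do. The regulatory T cell, T cell and cytotoxic lists lie farthest to the left together with the study's own list (medians from -3.03 to -2.26), and the lipid handling and fibroblast lists lie to the right of 0 (medians 0.50 and 0.54).

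The CD45+ cells without the reporter (Osx- CD45+, 3 libraries of each genotype from tumors of the same genotypes) served to ask whether the difference was particular to the reporter-positive cells. It was not shown to be: the difference of the genotype effects between the cell populations passed the threshold for 0 of 12928 genes in edgeR (lowest adjusted p = 0.877), with 562 (4.35%) at an unadjusted p under 0.05, and voom and DESeq2 also called 0. In the Osx- CD45+ libraries the T cell genes summed to 68.2, 3712 and 54.1 CPM in wild type and to 150, 48.4 and 34.6 CPM in Cdh2-cKO. Wild type replicate 2 stood apart there, with B and plasma cell genes at 6994 CPM against 19.5 to 51.2 CPM in the others and macrophage genes at 4004 CPM against 17300 to 23670 CPM. With that library the median genotype difference of the 18 T cell genes in Osx- CD45+ cells was -4.31, and without it 0.49, with 2 of 18 below 0.

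The direction of the difference of genotype effects (Osx+ minus Osx-) in the T cell genes depended on Osx- CD45+ wild type replicate 2. With all 12 libraries 0 of the 18 lay below 0, with a median of 1.42. Without that library all 18 lay below 0, with a median of -3.24. Of the 18, 13 had an unadjusted p under 0.05 in edgeR and 0 passed the adjusted threshold. Over all genes in that fit, 910 had an unadjusted p under 0.05 in edgeR, 421 of them below 0 and 489 above it. With all 12 libraries the count was 562 of 12928 genes (4.35%). Among the fits that left out 1 library each, this one is given because that library stood apart. For Foxp3 the difference was -3.36 (SE 1.01, edgeR adjusted p = 0.677) without that library and -0.45 with all 12. Wild type replicates 1 and 2 of the Osx- CD45+ libraries held Y-linked transcripts (Ddx3y at 50.8 and 153 CPM) while none of the 3 Cdh2-cKO libraries did (at most 0.656 CPM), so Y-linked status and genotype were not balanced there.

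**Figure D3:**
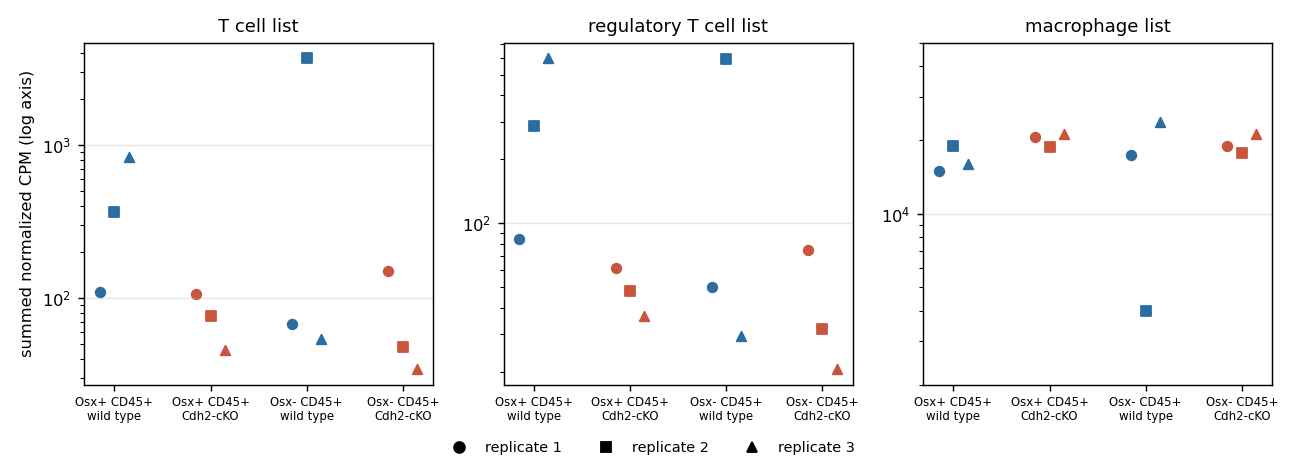
Summed normalized CPM (log axis) of the T cell, regulatory T cell and macrophage lists in the 12 CD45+ libraries, by reporter status and genotype, with wild type in blue, Cdh2-cKO in red and a symbol for each replicate. Among Osx+ CD45+ libraries the T cell sum runs from 111 to 843 CPM in wild type and from 46.2 to 106 CPM in Cdh2-cKO, and the Osx- CD45+ wild type replicate 2 stands apart at 3712 CPM.

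Beside Cd4, the lower genes with the smallest unadjusted p among those of at least 5 mean CPM in 1 genotype whose genotypes did not overlap were Neb, Gpr141, Plac8, Lysmd3, Camk4, Ly6c2, S100a9, Apobec1 and P2ry10. Gpr141, an orphan G protein-coupled receptor, was at 58.2, 60.1 and 60.0 CPM in wild type and at 30.1, 21.4 and 21.4 CPM in Cdh2-cKO (log2 fold change -1.29, SE 0.18, edgeR adjusted p = 0.25). The replicates of each genotype lay close together here, unlike those of the T cell genes. Apobec1, an RNA-editing cytidine deaminase, was at 216, 248 and 233 CPM against 131, 124 and 92.0 CPM (log2 fold change -1.01, SE 0.18), and Lysmd3, a membrane protein with a LysM domain, at 18.4, 21.5 and 14.6 CPM against 8.13, 6.81 and 6.99 CPM. P2ry10, a lysophospholipid receptor of lymphocytes, was at 37.6, 27.6 and 57.2 CPM against 15.3, 10.6 and 14.8 CPM, and the kinase gene Camk4 at 2.94, 5.92 and 9.56 CPM against 0.798, 0.954 and 0.960 CPM. Neb, which encodes the giant muscle protein nebulin, had the smallest unadjusted p of all genes, at 5.72, 5.28 and 11.2 CPM against 0.698, 0.651 and 0.320 CPM (log2 fold change -3.71, SE 0.45, edgeR adjusted p = 0.228, DESeq2 adjusted p = 2.724e-10).

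Genes of inflammatory monocytes were lower in the Cdh2-cKO libraries. Ly6c2, the surface antigen that defines these cells, was at 22.9, 11.6 and 30.3 CPM in wild type and at 5.48, 2.82 and 5.17 CPM in Cdh2-cKO (log2 fold change -2.27, SE 0.39, edgeR adjusted p = 0.319). Plac8 was at 36.2, 17.1 and 28.2 CPM against 8.82, 6.46 and 6.99 CPM (log2 fold change -1.87, SE 0.29). Ccr2, the receptor for the monocyte chemoattractant CCL2, was abundant in all libraries, at 1512, 1608 and 1662 CPM against 866, 1005 and 1138 CPM (log2 fold change -0.67, SE 0.18). In these 3 of the 8 monocyte genes tested every Cdh2-cKO library lay below every wild type library, against 6.78% of all genes, and DESeq2 called all 3, against 0.571% of all genes called lower. The list's median was -0.53, and Itgam and Cx3cr1, which macrophages share, had log2 fold changes of 0.02 and -0.03. S100a9, a calprotectin subunit of neutrophils and young monocytes, was at 8.23, 16.3 and 11.9 CPM against 4.49, 3.43 and 3.63 CPM, and its partner S100a8 at 12.77, 38.05 and 19.9 CPM against 11.1, 7.42 and 12.59 CPM, a gap of less than 1 CPM between the nearest libraries. Of the 7 neutrophil genes tested these 2 did not overlap, against 6.78% of all genes, and 5 lay below 0, while Csf3r and Mmp8 had log2 fold changes of 0.06 and 0.17. The neutrophil genes Ly6g, Elane and Camp had at most 8 raw counts in any library. In Osx- CD45+ cells the monocyte list lay mostly below 0 as well, with a median of -0.64 and 6 of 8 below 0. Without wild type replicate 2 there, the median was -0.32 with 5 of 8 below 0.

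Chemokine receptor genes lay mostly below 0 and chemokine genes mostly above it. Of 15 receptor genes tested, 14 had a log2 fold change below 0 (median -0.67), against 48.2% of all genes, and in 5 of them, among them Ccr2, Ccr8 and Cxcr6, the genotypes did not overlap, against 6.78%. Cxcr6, a receptor of tissue T cells, was at 7.59, 29.2 and 66.8 CPM in wild type and at 5.78, 4.38 and 1.97 CPM in Cdh2-cKO. Of the 18 ligand genes, 13 had a log2 fold change above 0 (median 0.33), against 51.8% of all genes, with every Cdh2-cKO library above every wild type library, as in 6.89% of all genes, for Ccl6, Cxcl2 and Cxcl3. Cxcl3, a ligand of the neutrophil receptor CXCR2, was at 13.6, 17.6 and 8.46 CPM against 24.8, 28.3 and 33.3 CPM (log2 fold change 1.12, SE 0.27), and Ccl6 at 1420, 1712 and 1886 CPM against 2614, 2239 and 2748 CPM. The CCR2 ligand Ccl2 overlapped, at 1350, 4136 and 2532 CPM against 3123, 1449 and 1973 CPM. In Osx- CD45+ cells the receptor median was -2.48 with 12 of 15 below 0, and the ligand median was 0.59 with 3 of 18 below 0. Without wild type replicate 2 there, the receptor median was -0.06 with 8 of 15 below 0, and the ligand median 0.59 with 4 of 18.

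Higher transcripts in Cdh2-cKO included the macrophage growth factor Csf1. Csf1 (chr3:107741048-107760469, minus strand) was at 28.8, 18.8 and 17.5 CPM in wild type and at 51.0, 56.3 and 45.8 CPM in Cdh2-cKO (log2 fold change 1.23, SE 0.22, edgeR adjusted p = 0.319). It was the single higher gene that edgeR called without wild type replicate 1 (log2 fold change 1.47, SE 0.19, edgeR adjusted p = 0.0417). Osbpl1a, encoding an oxysterol-binding protein of endosomes, had the smallest unadjusted p of the higher genes, at 8.98, 10.5 and 9.89 CPM against 26.7, 21.6 and 27.5 CPM (log2 fold change 1.37, SE 0.18, edgeR adjusted p = 0.248). Slc11a1, the metal transporter of the phagosome, was at 151, 128 and 126 CPM against 208, 223 and 229 CPM, and Tcn2, a carrier of vitamin B12, at 205, 227 and 184 CPM against 345, 407 and 296 CPM. For these genes wild type replicate 1 lay nearer to the other wild type libraries than to any knockout library. Cd22, a sialic acid-binding receptor best known from B cells, was at 4.22, 3.38 and 4.97 CPM against 11.9, 9.02 and 7.74 CPM. The B cell gene Cd79a had at most 18 raw counts in any library. Maged1 was at 48.2, 55.2 and 33.4 CPM against 81.5, 88.0 and 82.9 CPM, and the palmitoyltransferase gene Zdhhc14 at 6.68, 5.92 and 4.87 CPM against 12.02, 9.80 and 13.1 CPM.

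**Figure D4:**
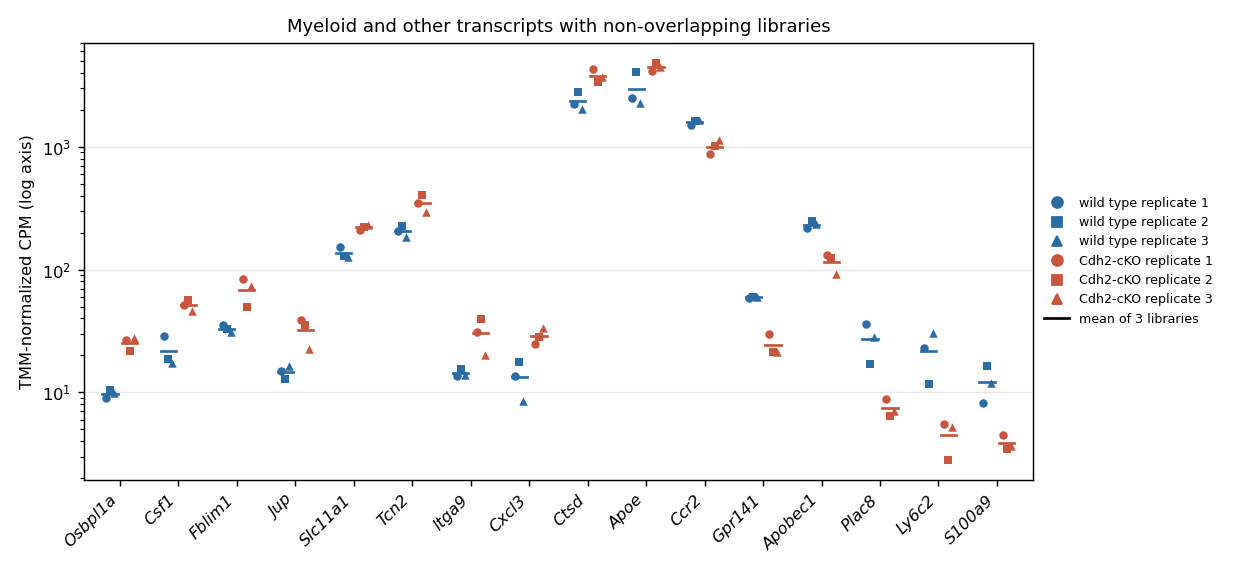
TMM-normalized CPM (log axis) of genes whose genotypes do not overlap, with higher genes on the left and lower genes on the right, in each Osx+ CD45+ library. Wild type libraries are blue and Cdh2-cKO libraries red, with a symbol for each replicate and a bar at the mean of 3 libraries. Replicates lie close together for Gpr141, at 58.2 to 60.1 CPM in wild type and 21.4 to 30.1 CPM in Cdh2-cKO. They lie farther apart for others, such as Ly6c2 at 11.6 to 30.3 CPM in wild type. The genes shown were chosen for the absence of overlap, a choice that favors close replicates.

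Genes of cell adhesion lay on both sides of 0. Of the 7 cadherin and catenin genes tested, 3 had a log2 fold change below 0 and 4 above it. Jup, which encodes plakoglobin, a catenin that binds the cytoplasmic tail of cadherins, was at 14.97, 12.8 and 16.5 CPM in wild type and at 39.1, 35.6 and 22.4 CPM in Cdh2-cKO (log2 fold change 1.13, SE 0.24, edgeR adjusted p = 0.427). Its relative Ctnnb1, encoding beta-catenin, was at 86.4, 93.6 and 80.1 CPM against 106, 104 and 88.7 CPM, which overlapped. Cdh1, encoding E-cadherin, was the most abundant cadherin, at 329, 95.9 and 228 CPM against 222, 133 and 206 CPM. Fblim1, encoding migfilin, which links filamin to cell adhesions, was at 35.2, 32.7 and 31.1 CPM against 83.0, 50.01 and 73.1 CPM, and Itga9, an integrin alpha chain, at 13.6, 15.4 and 13.9 CPM against 30.8, 39.8 and 20.2 CPM. Of 14 integrin genes tested, 8 lay above 0 and 6 below it, and Itgae, the alpha chain of resident T cells, was the 1 whose genotypes did not overlap, near the share among all genes (6.78%), at 9.67, 14.01 and 33.4 CPM against 5.68, 7.55 and 1.92 CPM. Itga9 was not among the 14.

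Lipid handling and lysosomal genes of macrophages lay above 0 throughout. All 14 had a log2 fold change above 0 (median 0.50, from 0.16 to 0.69), against 51.8% of all genes and a median of 0.01 over them, and 2 had genotypes that did not overlap, against 6.89% of all genes. In Osx- CD45+ cells the list lay above 0 as well, with a median of 0.54 and 0 of 14 below 0. Without wild type replicate 2 there, the median was 0.36 with 1 of 14 below 0. Ctsd, encoding the lysosomal protease cathepsin D, was at 2223, 2784 and 2016 CPM in wild type and at 4314, 3371 and 3669 CPM in Cdh2-cKO (log2 fold change 0.69, SE 0.21). Lipa, the lysosomal acid lipase, was at 212, 188 and 155 CPM against 294, 249 and 244 CPM. The fatty acid receptor gene Cd36 overlapped, at 43.3, 18.6 and 28.2 CPM against 35.9, 19.3 and 45.6 CPM. Of the 12 macrophage genes, 10 were above 0 (median 0.19), against 51.8% of all genes, and in 1 of the 12, Apoe, the genotypes did not overlap, near the share among all genes (6.89%), at 2478, 4089 and 2252 CPM against 4131, 4850 and 4424 CPM. Arg1, an enzyme of tumor macrophages that consumes arginine, was at 2870, 3050 and 3162 CPM against 4129, 2680 and 4468 CPM and overlapped. None of the members of these lists passed the adjusted threshold in edgeR (lowest adjusted p = 0.548 for the lipid list).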

How the data were processed

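RNA from sorted cells was amplified with the SMARTer kit and sequenced. The authors deposited, for each library, raw read counts per gene with the CPM and RPKM values computed from them, and their processing notes name STAR 2.0.4b, featureCounts 1.45 and GRCm38; strand handling is not given in the sources used here. The deposited CPM and RPKM followed from the counts, which alone were analysed. Gene IDs were named from GENCODE M21 (97.47% of 41388 matched).

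Genes annotated as rRNA were removed, and genes with more than 1 CPM in at least 2 of the 6 libraries were kept. Counts were scaled with TMM and tested with the quasi-likelihood test of edgeR 4.0.16 (R 4.3.3), with p adjusted by the Benjamini-Hochberg method and a threshold of 0.05. Limma 3.58.1 (voom with quality weights), DESeq2 1.42.0, other scalings, filters and sets of libraries were alternatives. Differences between cell populations were tested as an interaction over 12 CD45+ libraries. The tests were checked on simulated counts.

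Genes were named by fixed rules: Cdh2, Sp7, Ptprc, sex-linked genes, the first 2 members of each list, any called gene, and, as fewer than 10 were called per direction, the 10 with the smallest p among those with a mean of at least 5 CPM in 1 genotype and no overlap between genotypes. Other genes were named after their values were seen. The libraries, lists and rules were chosen with earlier results of these data known. Values of some genes are not reported here.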

Additional observations from a re-analysis of the deposited data

How the results depend on the processing

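Precision was limited by 3 libraries a genotype and, for genes near 1 CPM, by few counts. The count of genes called in Osx+ CD45+ cells was 0 in edgeR and stayed 0 with voom, RLE or upper quartile factors, a stricter filter, 12 or 22 libraries, and a term for Y-linked transcripts. DESeq2 called 84 genes (70 lower, 14 higher). Without a filter on low counts edgeR called 388 (273 lower, 115 higher), of which 326 also passed the usual filter; the cause was not tested. Without both libraries holding Y-linked transcripts, chosen after the data were seen, it called 47. Leaving out each library in turn gave 0 to 29 calls, the 29 without wild type replicate 1. At an unadjusted p under 0.05 the count of 984 became 519 with 22 libraries, 451 with 12, 2065 without a filter and 1542 without both libraries holding Y-linked transcripts, and ran from 603 (without Cdh2-cKO replicate 1) to 1306 (without wild type replicate 1) when single libraries were left out. In Osx- CD45+ cells edgeR called 0 genes and DESeq2 6, and leaving out each library gave 0 to 1. The difference of genotype effects was called for 0 genes under every alternative run.

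Replicate numbers did not pair wild type with Cdh2-cKO Osx+ CD45+ libraries: deviations from the genotype means correlated at -0.141, 0.0276 and 0.00393 for numbers 1, 2 and 3. These correlations did not examine whether Osx+ and Osx- libraries of the same number came from the same tumor, which the labels do not state. With the replicate block edgeR called 0 genes in Osx+ CD45+ cells, with 982 at an unadjusted p under 0.05, 0 for the difference of effects and 0 in Osx- CD45+ cells; log2 fold changes there reversed for Eif2s3y (0.044), Kdm5d (1.23), Il1b (0.019) and Ddit3 (-0.037).

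List medians moved by more than the spread between libraries in these cases. With the stricter filter the checkpoint list went to 0.44, the neutrophil list to -0.58 and the muscle list to -0.11, each with fewer genes. Without both libraries holding Y-linked transcripts the gamma-delta list went to -4.91 and the neutrophil list to -1.62. Leaving out single libraries gave medians from -0.86 to 0.085 for B and plasma cells, -1.26 to -0.19 for checkpoint genes, -0.31 to -0.054 for cholesterol synthesis, -2.80 to -1.11 for cytotoxic genes, 0.32 to 0.85 for endothelial, 0.17 to 1.05 for erythroid, -4.54 to -1.48 for gamma-delta, -0.41 to 0.25 for progenitor, -1.16 to -0.018 for neutrophil and -1.64 to -0.61 for muscle genes, and from -3.38 to -1.84 for the study's list.

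Small differences changed direction. With voom the log2 fold changes of Ddx3y, Eif2s3y, Kdm5d and Uty were 0.58, 0.50, 0.97 and 0.42. With the term for Y-linked transcripts those of Ddx3y, Kdm5d, Il1b and Ddit3 were 0.14, 0.38, 0.0067 and -0.023, and without both such libraries those of Cdh1, Il1b and Atf4 were 0.38, 0.21 and 0.11. Leaving out single libraries gave ranges through 0 for Adgre1 (-0.19 to 0.24), Atf4 (-0.28 to 0.051), Ccl2 (-0.66 to 0.17), Cd36 (-0.12 to 0.50), Cd79b (-0.78 to 0.085), Cdh1 (-0.57 to 0.19), Ddit3 (-0.21 to 0.28), Ddx3y (-0.70 to 0.48), Eif2s3y (-1.13 to 0.049), Fosb (-0.15 to 0.34), H2-Aa (-0.67 to 0.13), H2-Ab1 (-0.55 to 0.23), H2-K1 (-0.39 to 0.21), Il1b (-0.25 to 0.23), Itga1 (-0.23 to 0.57), Kdm5d (-0.88 to 0.30), Kit (-0.49 to 0.25), Uty (-1.08 to 0.10), Vegfa (-0.13 to 0.78), Xist (-0.28 to 0.95) and Zbtb46 (-0.67 to 0.084).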

Other observations

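Matrix genes of fibroblasts were present at low levels and lay above 0. All 12 tested had a log2 fold change above 0 (median 0.54), against 51.8% of all genes, and in Col1a1, Pdgfrb and Sparc every Cdh2-cKO library lay above every wild type library, against 6.89%. In Osx- CD45+ cells 13 were tested, with 0 below 0 and a median of 0.76. Without wild type replicate 2 there, the median was 1.16, again with 0 of 13 below 0. Sparc, a collagen-binding matrix protein, was at 54.9, 59.5 and 63.9 CPM in wild type and at 80.2, 86.7 and 136 CPM in Cdh2-cKO, and Col1a1, a chain of type I collagen, at 21.2, 30.5 and 19.3 CPM against 35, 31.9 and 34.7 CPM. Of 20 genes of hypoxia and glycolysis, 19 lay above 0 (median 0.26), against 51.8% of all genes, and 5 did not overlap, against 6.89%, among them Ldha, lactate dehydrogenase A, at 1922, 1571 and 1992 CPM against 2167, 2006 and 2228 CPM, and Car9, a carbonic anhydrase induced in hypoxia, at 21, 17.02 and 19.3 CPM against 26.6, 23.5 and 26.1 CPM. None passed the adjusted threshold in edgeR.

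Of 24 interferon-stimulated genes, 20 lay below 0 (median -0.33), against 48.2% of all genes, and 2, Ifit3 and Cxcl10, did not overlap, near the share among all genes (6.78%), Ifit3 at 18.6, 22.6 and 25.3 CPM against 13.8, 9.499 and 12.7 CPM. Antigen presentation genes overlapped in every case: of 9 genes of MHC class II, 7 lay below 0 (median -0.12), with H2-Aa at 5732, 1880 and 6692 CPM in wild type and 3845, 6493 and 2166 CPM in Cdh2-cKO. Cell cycle genes also lay close to 0 (median -0.11 over 21 genes), with Mki67 at 120, 127 and 99.7 CPM against 64.5, 111 and 103 CPM. Ly6a, the Sca-1 antigen of progenitors and activated lymphocytes, was at 50.1, 46.5 and 169 CPM against 19.7, 18.0 and 25.2 CPM, and Ighm, the heavy chain of IgM, at 23.3, 19.9 and 73.2 CPM against 10.97, 10.7 and 8.16 CPM, both without overlap. Each was the 1 lower gene without overlap among the 5 tested of its list, against 6.78% of all genes. Of the 5 progenitor genes, 3 lay below 0 and 2 above it. Of the 5 B and plasma cell genes, 4 lay below 0, and Cd22 was higher without overlap. Of 5 skeletal muscle genes, 5 lay below 0 (median -1.42), against 48.2% of all genes, and in 4 the genotypes overlapped. The 1 without overlap, against 6.78% of all genes, was Mylpf, a myosin light chain, at 3.74, 4.97 and 10.1 CPM against 2.04, 2.00 and 2.99 CPM. Acta1, from the same list, was at 19.9, 1.43 and 5.4 CPM against 2.09, 3.90 and 1.92 CPM.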
